A study of Mus musculus with 24 samples.

Results

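The mitochondrial Slc25 carrier genes were taken as every gene whose symbol begins with Slc25a and a number in all 6 deposited count tables, which gave 38 members of 13290 listed genes. They were followed in BV2, an immortalised mouse microglial line, and in EVs (extracellular vesicles, the small membrane bodies that cells release) of that line. For 72 h the cultures had LPS at 100 ng/mL (lipopolysaccharide, from the bacterial cell wall), IL-10 at 50 ng/mL (interleukin-10) or TGF-β at 50 ng/mL (transforming growth factor-β), and the rest were labelled as controls. Cells and EVs of each condition gave 3 libraries each, 24 in all, and every group shares the same line with no allele named. The study asked which RNAs mark the state of a microglial cell and of the EVs it sheds. Of the 47 Slc25a symbols in the GENCODE M21 annotation, 9 were not among the listed genes (Slc25a2, Slc25a18, Slc25a21, Slc25a27, Slc25a31, Slc25a34, Slc25a41, Slc25a48 and Slc25a54).

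SLC25 proteins are small carriers, nearly all in the inner mitochondrial membrane, that exchange nucleotides, phosphate, carboxylates, amino acids, cofactors and metal ions between the matrix and the cytosol. They are made in the cytosol from nuclear genes and brought in through the TOM complex and the TIM22 pathway. In macrophages and microglia they stand between the tricarboxylic acid cycle and the cytosolic use of its products, for example where exported citrate is turned into acetyl-CoA for lipid synthesis.

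EV libraries held 3.02 to 17.98 M counts and cell libraries 26.14 to 42.13 M. Pairs of libraries from the same group correlated across genes, which are no replicates, at r = 0.673 to 0.855 in EVs and 0.992 to 0.996 in cells. Of 10 microglial and macrophage markers measured, Ptprc, Csf1r, Cd68, Itgam, Aif1, Spi1, Trem2, Tyrobp and Tmem119 were above 0 in every cell library, while Cx3cr1 ran between 0 and 14.9 CPM. Of 3 neuronal markers, Rbfox3 was at 0 in every cell library, Snap25 reached 0.034 CPM and Syt1 0.285 CPM, and the homeostatic marker P2ry12 was not among the listed genes. The labels do not say whether the 3 libraries of a group are separate cultures, and p-values therefore reflect only how these libraries vary, which may be technical. In bulk RNA, fewer cells that use a gene and less of its RNA per cell cannot be told apart. Unless said otherwise, library values are CPM (counts scaled to the library total) after TMM scaling over the 12 libraries of cells or of EVs, and each fold change (log2, with SE) and adjusted p comes from edgeR's quasi-likelihood test on the 6 libraries compared, adjusted over all genes tested. A member is called where that p is under 0.05.

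Per length of exon, the ADP/ATP carrier Slc25a5 had the highest level in control cells, at 390 ± 27.3 CPM per kb (SD, n = 3). Slc25a39, which carries glutathione into mitochondria, followed at 209 ± 6.57, and the other ADP/ATP carrier measured, Slc25a4, at 112 ± 5.14. The oxoglutarate/malate carrier Slc25a11 reached 83.1 ± 4.1 CPM per kb, the citrate carrier Slc25a1 66.1 ± 3.25 and the phosphate carrier Slc25a3 58.9 ± 0.368. At the low end stood Slc25a35 at 0.519 ± 0.158, Slc25a53 at 0.301 ± 0.0887 and Slc25a47 at 0.202 ± 0.0457 CPM per kb, all 3 with little known of their substrates, and their ranges of mean ± SD met between neighbours. Slc25a3, Slc25a4, Slc25a5 and Slc25a39 together took 60.6% to 61.6% of the members' counts in LPS cells, 55.3% to 56.6% in IL-10 cells, 54.9% to 55.7% in TGF-β cells and at most 57.2% in control cells. A pseudogene of Slc25a5 is named in the annotation, so the counts of Slc25a5 may be shared with it.

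**Figure D1:**
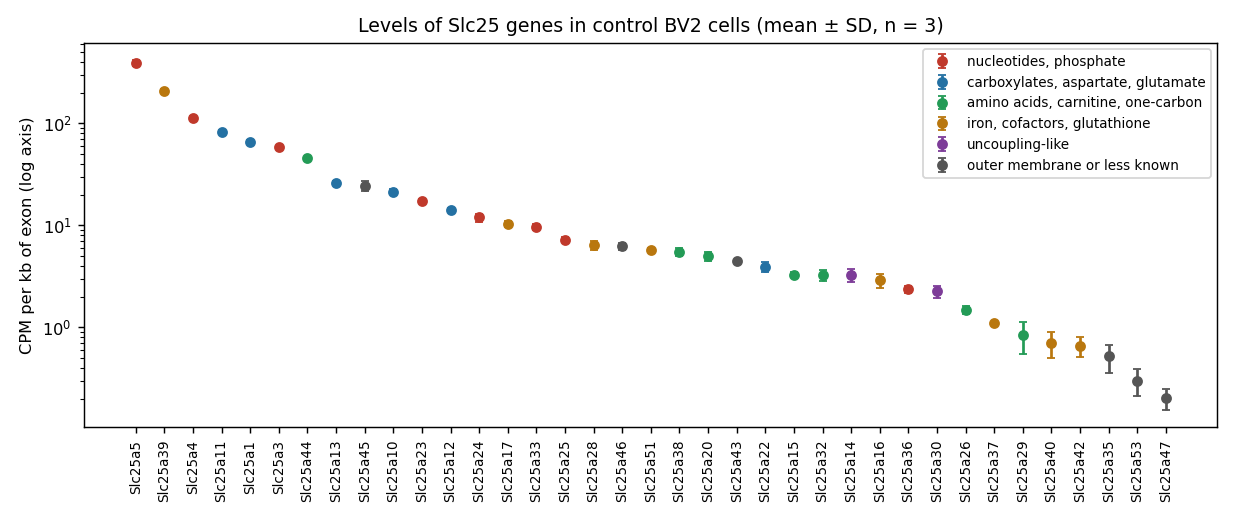
Level of the Slc25 genes reported here in control BV2 cells in CPM per kb of exon (log axis), as mean ± SD of 3 libraries, coloured by the role of the carrier. The levels run between 390 for Slc25a5 and 0.202 for Slc25a47. Carriers of iron, cofactors and glutathione run from 209 for Slc25a39 to 0.66 for Slc25a42, while the uncoupling-like Slc25a14 (3.25) and Slc25a30 (2.25) lie close together.

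After LPS, carriers of nucleotides and of iron and cofactors were called in both directions, and those of carboxylates, aspartate and glutamate in the upward direction alone. In LPS cells against control cells 14 members were higher and 4 lower, 47.4% of the 38 tested, where 56.1% of all 11951 genes tested were called (28.6% higher, 27.5% lower). The share called was thus below that of all genes, while the members' median log2 fold change was 0.18 against 0.01 for all genes. Groups did not overlap for 19 members, against 62.4% of all genes. A change of at least 1.5-fold was called for 8 members, 6 higher and 2 lower, against 29.9% of all genes. By role, 5 of 8 nucleotide and phosphate carriers were higher and 2 lower, 3 of 6 carriers of carboxylates, aspartate and glutamate were higher, and 3 of 9 carriers of iron, cofactors and glutathione were higher and 1 lower. Of 7 carriers of amino acids, carnitine and one-carbon units, none was higher and 1, the branched-chain amino acid carrier Slc25a44, was lower. The astrocyte markers measured (2 of 4, with Gfap and Aqp4 not among the genes) summed to 10.1 to 13.4 CPM of library total in LPS cells, against 6.24 to 8.03 CPM in control cells, and their part in these results was not tested. Most of this sum was Aldh1l1, at 5.98 to 12.5 CPM over all cell libraries, while Slc1a2 had 0 to 1.07 CPM.

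The mitoferrins, which bring iron into mitochondria for heme and iron-sulfur clusters, moved in opposite directions. Slc25a37 (mitoferrin-1) had 20.7, 16 and 18.8 CPM in LPS cells, against 6.65, 6.23 and 6.62 CPM in control cells. Every LPS library lay above every control library, and Slc25a37 rose 2.85-fold (log2 1.51, SE 0.14, edgeR adjusted p = 3.95e-08). Slc25a28 (mitoferrin-2) had 13, 12.7 and 12.5 CPM in LPS cells, against 22.3, 21.9 and 26.2 CPM in control cells. It fell 1.84-fold with no overlap (log2 -0.88, SE 0.12, edgeR adjusted p = 3.29e-06). Genes on the opposite strand each overlap at most 6.3% of the exons of Slc25a37, and whether the counting used strand is not given in the sources used here. Slc25a40, like Slc25a39 a glutathione carrier, had 9.02, 9.01 and 8.22 CPM in LPS cells, against 4.17, 5.56 and 7.52 CPM in control cells. The groups did not overlap, but its call (log2 0.61, SE 0.19, edgeR adjusted p = 0.0125) was lost without control library 1 (0.0788).

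Among nucleotide carriers, Slc25a5 had 933, 1016 and 956 CPM in LPS cells, against 655, 654 and 585 CPM in control cells. It rose 1.53-fold without overlap (log2 0.62, SE 0.07, edgeR adjusted p = 1.95e-07). Its relative Slc25a4 rose 1.32-fold (log2 0.41), the phosphate carrier Slc25a3 1.15-fold, and the pyrimidine nucleotide carrier Slc25a33 1.42-fold. Slc25a36, also a pyrimidine nucleotide carrier, fell 1.48-fold (log2 -0.56). Slc25a23, a calcium-regulated carrier that exchanges ATP-Mg for phosphate, had 42.4, 40.9 and 46.1 CPM in LPS cells, against 92.5, 85.7 and 94.6 CPM in control cells. All 3 LPS libraries were below all 3 control libraries, and the fall was 2.11-fold (log2 -1.08, SE 0.08, edgeR adjusted p = 1.02e-09). Slc25a24, of the same kind as Slc25a23, was called 1.25-fold higher although its groups overlapped, and Slc25a25 was not called (log2 0.11).

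Among carboxylate and amino acid carriers, the mitochondrial glutamate carrier Slc25a22 had 44, 47.3 and 48.7 CPM in LPS cells, against 20.2, 25 and 24.5 CPM in control cells. It rose 2.01-fold with no overlap (log2 1.00, SE 0.10, edgeR adjusted p = 9.65e-08). The dicarboxylate carrier Slc25a10 rose 1.48-fold (log2 0.57) and the aspartate/glutamate carrier Slc25a12 1.25-fold. The other aspartate/glutamate carrier, Slc25a13, was not called (log2 -0.14), nor were Slc25a1 (0.15) and Slc25a11 (0.03). Slc25a43, whose substrate is little known, had 11.4, 13.2 and 12.8 CPM in LPS cells, against 7.39, 7.88 and 7.99 CPM in control cells, and rose 1.60-fold (log2 0.68, edgeR adjusted p = 0.000493). Slc25a35 had 3.88, 3.37 and 4.48 CPM in LPS cells, against 1.79, 1.34 and 2.51 CPM in control cells (log2 1.06, SE 0.27, edgeR adjusted p = 0.00263). Rangrf overlaps 31.3% of the exons of Slc25a35 on the opposite strand, so reads of both may be counted together.

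**Figure D2:**
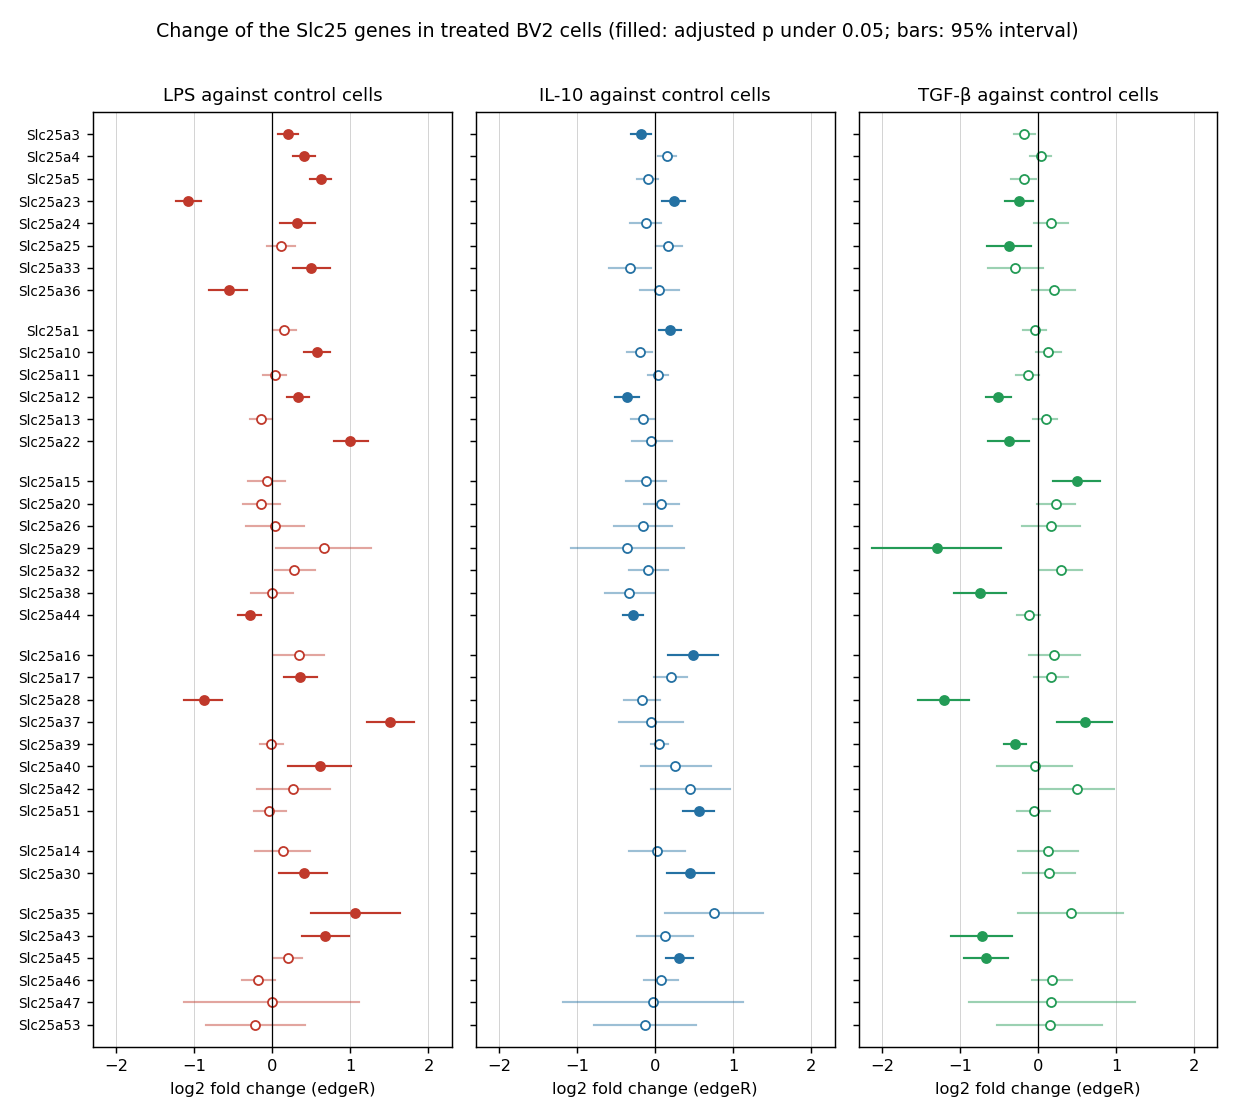
Log2 fold change of the Slc25 genes reported here in LPS, IL-10 and TGF-β cells, each against control cells, with 95% intervals from edgeR, grouped by role as in the text from nucleotide carriers at the top to less known carriers at the bottom. Filled points are called: 18 after LPS, 9 after IL-10 and 12 after TGF-β.

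Slc25a22, the member with the largest called rise among those with an entry in the RefSeq promoter table, is shown with the 2 members that fell by at least 1.5-fold after LPS. Each sequence covers 250 bases before and 50 after a transcript start in GRCm38.p6, all on the minus strand: chr7:141437825-141438124 for Slc25a22 (first of 3 listed starts), chr17:57059814-57060113 for Slc25a23 (first of 2) and chr19:43674832-43675131 for Slc25a28 (the single start). Capitals mark the CCAAT letters, which were searched on both strands.
Slc25a22: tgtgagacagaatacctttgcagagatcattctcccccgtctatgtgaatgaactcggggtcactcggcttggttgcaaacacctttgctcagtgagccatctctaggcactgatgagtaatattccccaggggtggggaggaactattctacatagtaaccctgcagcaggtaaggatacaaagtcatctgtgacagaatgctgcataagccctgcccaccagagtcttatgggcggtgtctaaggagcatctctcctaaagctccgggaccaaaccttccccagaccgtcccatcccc
Slc25a23: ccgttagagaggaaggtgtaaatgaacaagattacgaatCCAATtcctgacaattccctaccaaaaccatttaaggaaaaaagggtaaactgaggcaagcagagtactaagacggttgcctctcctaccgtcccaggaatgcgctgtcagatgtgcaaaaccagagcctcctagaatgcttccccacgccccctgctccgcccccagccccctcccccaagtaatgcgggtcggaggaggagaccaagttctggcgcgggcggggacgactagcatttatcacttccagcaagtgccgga
Slc25a28: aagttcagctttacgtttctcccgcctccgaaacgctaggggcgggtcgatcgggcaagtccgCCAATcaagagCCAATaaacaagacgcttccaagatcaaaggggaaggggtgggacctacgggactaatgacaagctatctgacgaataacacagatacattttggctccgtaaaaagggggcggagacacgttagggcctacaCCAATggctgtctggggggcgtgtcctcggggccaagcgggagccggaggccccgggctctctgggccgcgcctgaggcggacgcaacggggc
Slc25a28 holds 3 CCAAT runs, Slc25a23 holds 1 and Slc25a22 holds none of the motifs named here. Of the 30 members with an entry, 15 (50%) hold CCAAT on either strand, against 38.9% of the first promoters of 9801 listed genes. CCGGAAG, part of ETS factor sites, is in 20% of the members' promoters against 18.7%, and CACGTG, an E-box, in 16.7% against 10.3%. TATAAA is in 0 of 30 members' promoters against 7%. By the call after LPS, CCAAT is in 5 of 12 promoters of higher members, 3 of 3 of lower members and 7 of 15 of members not called, and these matches are descriptions of the letters.

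After IL-10 the share of carriers called was close to that of all genes, and none was called at 1.5-fold or more, against 6.83% of all genes. In IL-10 cells 6 members were higher than in control cells (Slc25a1, Slc25a16, Slc25a23, Slc25a30, Slc25a45 and Slc25a51) and 3 lower (Slc25a3, Slc25a12 and Slc25a44). These were 23.7% of the members, where 23.2% of all 11790 genes were called (12.3% higher, 10.9% lower). Groups did not overlap for 18 members, against 37.9% of all genes. The count was 5 without IL-10 library 2, 4 without control library 2 and 5 without control library 3. Of the members called, Slc25a51, the mitochondrial NAD+ carrier and named here after its values were seen, had 41.3, 48.2 and 49.5 CPM in IL-10 cells, against 30.8, 30.7 and 32.8 CPM in control cells. It lay above control in all 3 libraries and rose 1.47-fold (log2 0.56, SE 0.10, edgeR adjusted p = 0.000253). Slc25a23 rose 1.18-fold (103, 110 and 109 CPM in IL-10 cells, edgeR adjusted p = 0.0177), and Slc25a12 fell 1.28-fold (86.4, 77.4 and 78 CPM in IL-10 cells, edgeR adjusted p = 0.00101). By library total alone, Slc25a23 had 95.1, 99.7 and 98.3 CPM in IL-10 cells, against 94, 87.9 and 95.5 CPM in control cells. These groups overlapped, as did those of Slc25a1, Slc25a16 and Slc25a45, and those of Slc25a30 met at 11.9 CPM. On that scale Slc25a51 was the only higher member whose groups stayed apart. The groups of the 3 lower members, Slc25a3, Slc25a12 and Slc25a44, did not overlap there. The mitoferrins were not called after IL-10, with log2 fold changes of -0.05 for Slc25a37 and -0.17 for Slc25a28.

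After TGF-β more carriers were called lower than higher, while the members' median log2 fold change was -0.00, against 0.01 for all genes. The fold change was above 0 for 19 of the 38 members. In TGF-β cells 2 members were higher than in control cells and 10 lower, 31.6% of the members, where 29.9% of all 11798 genes were called (14.5% higher, 15.4% lower). Groups did not overlap for 20 members, against 44.9% of all genes. A change of at least 1.5-fold was called for 6 members, against 14.4% of all genes. The count of members called was 7 without control library 3. The mitoferrins again moved apart: Slc25a37 had 10.6, 8.97 and 10 CPM in TGF-β cells, above the 6.23 to 6.65 CPM of control cells, and rose 1.52-fold (log2 0.60, SE 0.16, edgeR adjusted p = 0.0125). Slc25a28 had 10.7, 11.6 and 8.21 CPM in TGF-β cells, against 21.9 to 26.2 CPM in control cells, and fell 2.32-fold (log2 -1.21, SE 0.15, edgeR adjusted p = 4.26e-05). LPS and TGF-β cells were set against the same 3 control libraries, so these comparisons are not independent of each other. The other rise was in the ornithine carrier Slc25a15, which had 27.1, 20.3 and 29.9 CPM in TGF-β cells, against 17.3, 19.2 and 18.4 CPM in control cells (log2 0.50, edgeR adjusted p = 0.0175).

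The falls after TGF-β lay in every role except the uncoupling-like carriers, where 0 of 2 were lower. Lower were 2 of 8 nucleotide and phosphate carriers and 2 of 6 carriers of carboxylates, aspartate and glutamate. So were 2 of 7 of amino acids, carnitine and one-carbon units, 2 of 9 of iron, cofactors and glutathione, and 2 of 6 of less known substrate. Slc25a38, a glycine carrier needed for heme synthesis, had 8.02, 8.35 and 10.2 CPM in TGF-β cells, against 16.4, 14.2 and 13.9 CPM in control cells (log2 -0.74, SE 0.15, edgeR adjusted p = 0.00239). Slc25a45 had 36.8, 38.7 and 50.5 CPM in TGF-β cells, against 76.1, 61.5 and 63 CPM in control cells (log2 -0.67, SE 0.13, edgeR adjusted p = 0.00186). Slc25a43, which was higher in LPS cells, had 4.26, 4.52 and 5.3 CPM in TGF-β cells, against 7.39, 7.88 and 7.99 CPM in control cells (log2 -0.72, edgeR adjusted p = 0.00879). None of these 3 genes had overlapping groups. Slc25a29, a carrier of basic amino acids, was near the low end of the family at 1.04, 0.766 and 0.804 CPM in TGF-β cells, against 2.23, 1.37 and 2.87 CPM in control cells. Its call (log2 -1.30, SE 0.38, edgeR adjusted p = 0.0203) was lost without control library 1 (0.062) and without control library 3 (0.114). The remaining falls, between log2 -0.51 and -0.24, were in Slc25a12, Slc25a22, Slc25a23, Slc25a25 and Slc25a39.

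**Figure D3:**
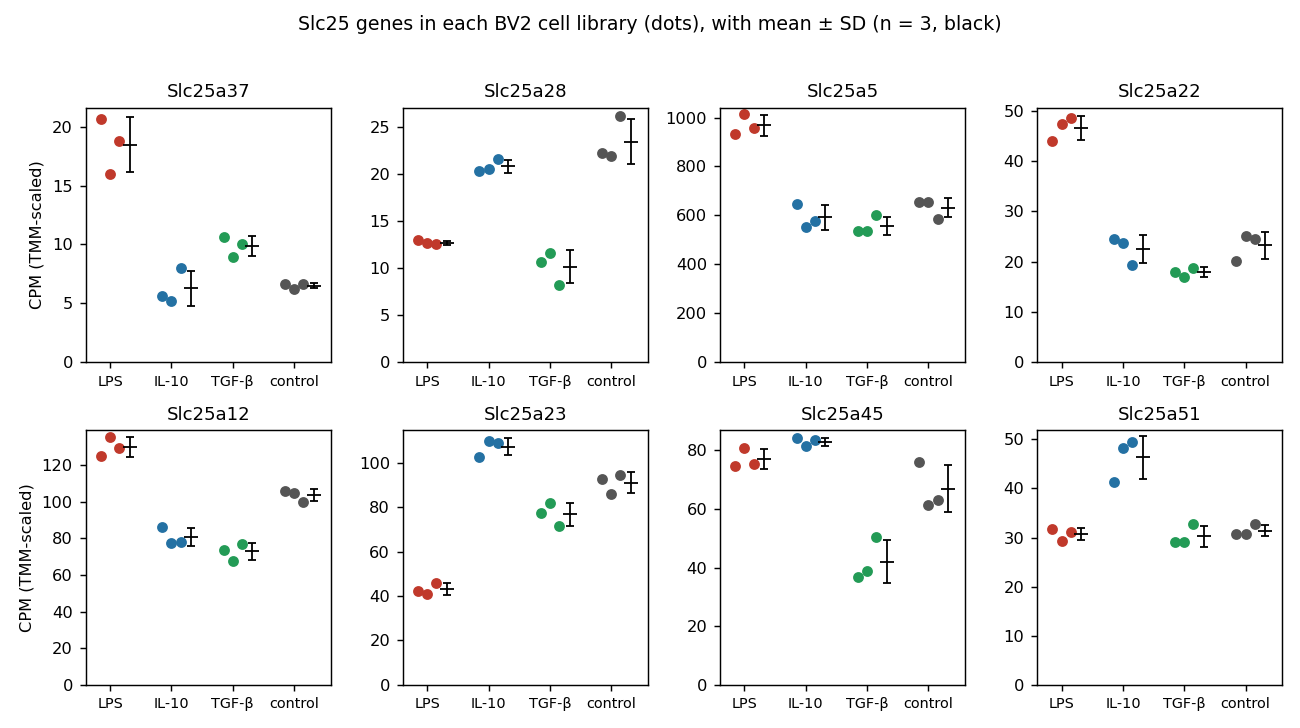
CPM (TMM-scaled) of 8 Slc25 genes in each of the 12 BV2 cell libraries, with the mean ± SD of 3 libraries in black. Slc25a37 is high in LPS cells (16 to 20.7) and Slc25a28 is low in LPS and TGF-β cells (8.21 to 13), while Slc25a51 stands out in IL-10 cells (41.3 to 49.5).

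Across the 3 treatments 27 members were called at least once, and 11 in none (among them Slc25a11, Slc25a13, Slc25a14, Slc25a20, Slc25a26, Slc25a32, Slc25a42, Slc25a46, Slc25a47 and Slc25a53). Slc25a12 and Slc25a23 were called in all 3. Slc25a12 was higher after LPS and lower after IL-10 and TGF-β, and Slc25a23 was higher after IL-10 and lower after LPS and TGF-β. By library total alone, the IL-10 and control groups of Slc25a23 overlapped. Summed over the members, LPS cells held 3488 to 3815 CPM, IL-10 cells 3118 to 3136, TGF-β cells 2793 to 2869 and control cells 3083 to 3175. Scaled by library total alone, the sum was 3839 to 3989 CPM in LPS cells, 2829 to 2901 in IL-10 cells, 2787 to 2986 in TGF-β cells and 3110.5 to 3255 in control cells. The IL-10 sum thus overlapped control with TMM scaling and lay below it without. TMM factors were 0.903 to 0.926 in IL-10 cells and 1.009 to 1.026 in control cells.

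Treatments were also set against each other directly, in a fit of all 12 cell libraries, with no control as the reference. LPS cells differed from TGF-β cells in 26 members, 20 higher and 6 lower, where 57.1% of 12148 genes were called (29.3% higher, 27.8% lower). The members' median log2 difference was 0.22, against 0.01 for all genes, and groups did not overlap for 29 members, against 61.2% of genes. The differences were 1.96 for Slc25a29, 1.40 for Slc25a43, 1.38 for Slc25a22, 0.91 for Slc25a37, 0.87 for Slc25a45 and -0.83 for Slc25a23. LPS cells differed from IL-10 cells in 16 members, 12 higher and 4 lower, against 53.3% of genes, and groups did not overlap for 20 members, against 60.0%. The contrast was led by Slc25a37 at log2 1.56 (SE 0.17, edgeR adjusted p = 2.25e-07) and Slc25a23 at -1.31 (SE 0.08, 6.09e-11). Slc25a22 differed there by 1.05, Slc25a33 by 0.82, Slc25a10 by 0.77 and Slc25a29 by 1.01, the last no longer called without LPS library 3 (0.0687). TGF-β cells differed from IL-10 cells in 18 members, 6 higher and 12 lower, against 38.3% of genes (18.3% higher, 20.0% lower). Slc25a28 was lower there by log2 -1.04 (SE 0.13, edgeR adjusted p = 3.16e-06), Slc25a45 by -0.98 and Slc25a43 by -0.85, while Slc25a37 was higher by 0.65 and Slc25a15 by 0.62. Slc25a29 was lower by -0.94, with an adjusted p of 0.0349 that ran between 0.0279 and 0.13 over 11 alternatives and was lost in 5 of them. So Slc25a37 was higher in LPS cells than in either cytokine group, and Slc25a28 was lower in both LPS and TGF-β cells than in IL-10 cells (log2 -0.71 for LPS, edgeR adjusted p = 0.000124).

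Other genes of carrier biology were read from 4 lists, beside the 28.6% of all genes called higher and the 27.5% called lower in LPS cells. Of the 15 genes of the machinery that imports carriers, 12 were higher in LPS cells than in control cells and none lower, among them Timm8a1 (log2 1.52), Tomm5 (1.17), Tomm40 (0.67) and Timm13 (0.42), and their median was 0.39. Of 18 enzymes that share substrates with carriers, 8 were higher and 7 lower after LPS. Acod1, which makes itaconate, rose by log2 7.42, malic enzyme Me1 by 1.25, malate dehydrogenase Mdh2 by 0.99 and Acly, which cleaves exported citrate, by 0.90. Of 19 other mitochondrial transporters 7 were higher and 3 lower, near the share of all genes called, with the outer membrane channels Vdac3 at 0.84 and Vdac2 at 0.56 and the sideroflexins Sfxn1 at 0.58 and Sfxn3 at -0.85. Of the 3 SLC25 relatives with other names, Mtch2 was higher (0.37), and Ucp2 (-0.43) and Mtch1 (-0.45) were lower.

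After IL-10, where 23.2% of all genes were called, 0 of 15 import genes and 0 of 3 relatives were called by edgeR, and 0 of 19 transporters was higher and 3 lower (Sfxn3 at -0.35, Abcb10 at -0.43 and Abcb8 at -0.25). Of the enzymes, Acod1 was higher (0.93), and the carnitine palmitoyltransferases Cpt1a (-0.94) and Cpt2 (-0.21) were lower. After TGF-β, where 14.5% of all genes were called higher and 15.4% lower, Ucp2 rose 2.11-fold (log2 1.07, SE 0.07, edgeR adjusted p = 1.36e-07) and Cpt1a 2.22-fold (1.15). Of 18 enzymes 3 were higher and 8 lower, with Ogdh at -0.59, Mdh2 at -0.40 and Idh1 at 0.67. Of the transporters 3 were higher and 4 lower, with Mcu, the calcium uniporter, at -0.61, Vdac3 at -0.45 and Sfxn3 at 0.54. Of the import genes 1 was higher (Timm22, 0.39) and 1 lower (Tomm40, -0.30).

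Carriers without a count were found in the IL-10, TGF-β and control EV libraries, and in none of the LPS EV libraries. The number of members at 0 was 0 in each of the LPS EV libraries, 4, 9 and 13 in IL-10 EVs, 13, 5 and 4 in TGF-β EVs, and 6, 11 and 13 in control EVs. In all 12 EV libraries 15 members had counts. A count of 0 allows up to 0.167 to 0.994 CPM in an EV library (3 counts, counting error alone). The LPS EV libraries stood apart over all genes: 0.49% to 4.42% of listed genes were at 0 in them, against 19.58% to 50.00% in the other EV libraries. The 116 genes at 0 in every cell library summed to 1157 to 4986 CPM in LPS EVs, against 9.8 to 131 CPM in the other EVs. The neuronal markers measured (3 of 4 listed, with Map2 not among the genes) summed to 20.1 to 145.7 CPM in LPS EVs, against 0 to 14.5 CPM in the other EVs. The microglial and macrophage markers (10 of 11) summed to 2474 to 3459 CPM in LPS EVs, against 1589 to 5408 CPM in the other EVs. The part of these differences in the results on LPS EVs was not tested.

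In LPS EVs against control EVs, 1 of 36 members tested was called, where 14.2% of 12216 genes were called (13.9% higher, 0.237% lower). An unadjusted edgeR p under 0.05 was reached by 2 of the 36 members, against 2473 of the 12216 genes. Groups did not overlap for 7 members, against 31.8% of genes. The call was Slc25a35 (edgeR adjusted p = 0.025), which had 25, 52 and 82 counts in LPS EVs and 0 in each of the control, IL-10 and TGF-β EV libraries. It was at least 32-fold higher in LPS EVs than in control EVs, by a floor of 3 counts per control library. It passed the filter on low counts through the LPS EVs alone and so had to differ, and its p is given as a description that supports nothing. The count was 0 without LPS EV library 1, 2 or 3, and 5, 2 and 3 without control EV library 1, 2 and 3. DESeq2 called 3 members and limma-voom 4. Slc25a29 had 2, 19 and 35 counts in LPS EVs and 0 in every other EV library, at least 10.9-fold higher than in control EVs, and did not pass the filter for the test. Slc25a4 had 178, 186 and 207 CPM of library total in LPS EVs, below the 300, 428 and 358 CPM in control EVs, with an edgeR adjusted p of 0.122 (log2 -1.14, SE 0.39).

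For IL-10 EVs against control EVs 0 of 33 members tested were called by edgeR, and 0.00% of 8992 genes were called. An unadjusted edgeR p under 0.05 was reached by 2 members, against 177 of the 8992 genes. Groups did not overlap for 1 member, against 9.94% of genes. The lowest p were those of Slc25a24 (log2 -3.29) and Slc25a15 (1.77), each with an edgeR adjusted p of 1. For TGF-β EVs against control EVs 0 of 32 members were called by edgeR, and 0.00% of 9093 genes were called. An unadjusted edgeR p under 0.05 was reached by 1 member, against 360 of the 9093 genes. Groups did not overlap for 4 members, against 16.9% of genes. The lowest p were those of Slc25a15 (log2 2.04), Slc25a3 (0.94) and Slc25a24 (-1.36), each with an edgeR adjusted p of 0.999. DESeq2 and limma-voom also called 0 members in both comparisons. Slc25a15 had 153, 49.3 and 168 CPM of library total in IL-10 EVs, 238, 74.1 and 86.6 in TGF-β EVs, and 57.5, 42.3 and 16.7 in control EVs. The SE of the members named here ran between 0.43 and 1.32 on the log2 scale.

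EVs were also set against cells of the same treatment. Of the members tested, 36.8% were called for LPS (40.5% of all genes), 16.2% for IL-10 (17.7%), 21.6% for TGF-β (18.4%) and 5.26% for controls (10.7%). For these comparisons values are CPM of library total. Slc25a39 took 21.5% to 39.4% of the members' counts over the EV libraries, against 14.4% to 20.0% over the cell libraries. It had 1915, 1198 and 1673 CPM in TGF-β EVs, against 455, 486 and 462 CPM in TGF-β cells (log2 2.06, SE 0.23, edgeR adjusted p = 0.00569), and in IL-10 EVs 1461, 1131 and 1108 CPM, against 509, 566 and 531 CPM in IL-10 cells (log2 1.29, SE 0.29, edgeR adjusted p = 0.0336). The IL-10 call was lost in 4 of 12 alternatives. It was not called in control EVs against control cells (log2 1.06, SE 0.30, edgeR adjusted p = 0.102), nor in LPS EVs, where it had 791, 674 and 843 CPM, against 552, 626 and 608 CPM in LPS cells (log2 0.12, SE 0.24, edgeR adjusted p = 0.729). The NAD+ carrier Slc25a51 had 238, 185 and 289 CPM in TGF-β EVs, against 29, 29 and 34.1 CPM in TGF-β cells, and was 9.53-fold higher in the EVs (log2 3.25, SE 0.30, edgeR adjusted p = 0.00302). It had 331, 174 and 59.4 CPM in IL-10 EVs, against 38.3, 43.7 and 44.7 CPM in IL-10 cells, and was not called (log2 2.33, SE 0.75, edgeR adjusted p = 0.097). In control EVs it had 16.1, 121 and 193 CPM, against 31.3, 31.5 and 33 CPM in control cells, groups that overlapped, and it was not called (log2 1.85, SE 0.88, edgeR adjusted p = 0.328).

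In TGF-β EVs against TGF-β cells 8 members were called, 5 higher and 3 lower, where 18.4% of genes were called (9.42% higher, 8.99% lower), and groups did not overlap for 14 members, against 54.3%. Slc25a53 (log2 3.78), Slc25a15 (2.62) and Slc25a3 (1.17) were the other members higher. Their calls were lost in 3, 3 and 6 of 12 alternatives. Slc25a42, a carrier of coenzyme A, Slc25a35 and Slc25a29 were at 0 in TGF-β EVs and thus at least 12-fold, 5.46-fold and 1.89-fold lower than in TGF-β cells. The count was 14 without TGF-β EV library 1 and 2 without any 1 cell library. In IL-10 EVs against IL-10 cells 6 members were called, 3 higher and 3 lower, against 17.7% of genes (7.49% higher, 10.2% lower), and groups did not overlap for 16 members, against 51.1%. Slc25a15 (log2 3.06, lost in 3 of 12 alternatives), Slc25a39 and Slc25a4 (0.71, lost in 7 of 12 alternatives) were higher. Slc25a42, Slc25a35 and Slc25a29 were at 0 in the EVs, at least 9.55-fold, 5.67-fold and 3.02-fold lower. The count was 12 without IL-10 EV library 3 and 0 without any 1 cell library. In control EVs against control cells 2 members were called, both lower, against 10.7% of genes (1.23% higher, 9.43% lower), and groups did not overlap for 10 members, against 41.3%. Both Slc25a29 and Slc25a35 were at 0 in the EVs, at least 5.84-fold and 5.09-fold lower. In these 3 comparisons the members at 0 in the EVs passed the filter on low counts through the cells alone, and their calls are a description. That count was 0 without any 1 control cell library, and 13, 6 and 5 without control EV library 1, 2 and 3. Slc25a40 was the next by p there (log2 -5.66, SE 1.40, edgeR adjusted p = 0.0696), with 5 counts in 1 of the 3 control EV libraries.

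LPS EVs against LPS cells gave 14 called members, 3 higher and 11 lower, where 40.5% of genes were called (25.3% higher, 15.2% lower), and groups did not overlap for 22 members, against 59.4%. The 3 higher were Slc25a47 (log2 3.72), Slc25a53 (2.52) and Slc25a51 (0.94). Slc25a47 had 6.41, 20.2 and 5.42 CPM in LPS EVs, against 0.878, 0.209 and 0.763 CPM (37, 6 and 25 counts) in LPS cells. It needed the LPS EVs to pass the filter on low counts, so its call is a description. The lower members included Slc25a10 (-1.70), Slc25a45 (-1.60), Slc25a1 (-1.29), Slc25a17 (-1.27, a carrier of cofactors in peroxisomes), Slc25a4 (-1.20) and Slc25a5 (-1.12). Slc25a39, among the most abundant members in the cells, was not among them. The calls of Slc25a10 and Slc25a45 were each lost in 6 of 12 alternatives, that of Slc25a53 in 5, Slc25a5 in 4 and Slc25a17 in 3. Those of Slc25a1 and Slc25a4 were lost in 0 of 12. The count was 3 without any 1 LPS cell library. These EV libraries are the ones with the high sums of genes silent in cells given above.

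The effect of LPS in EVs minus its effect in cells was tested as an interaction over 12 libraries, and 4 members were called, 2 higher and 2 lower, against 16.1% of 13263 genes (14.1% higher, 2.04% lower). The count was 13 without control EV library 1 and 7 without control EV library 2. For Slc25a4 the difference was log2 -1.71 (SE 0.32, edgeR adjusted p = 0.00452), with LPS libraries below control libraries in EVs and above them in cells. It stayed called in all 17 alternatives, with adjusted p between 4.59e-06 and 0.0401. Slc25a24 differed by log2 -1.70 (SE 0.52, edgeR adjusted p = 0.0485) and lost its call in 13 of 17 alternatives. Slc25a35 (log2 9.46) and Slc25a29 (8.29) rest on control EVs without a count, so these fitted values are no bounds on the difference. The same interaction for IL-10 and for TGF-β called 0 members by edgeR each, where 0.285% and 0.310% of genes were called. An unadjusted edgeR p under 0.05 was reached for IL-10 by 3 of 38 members, against 1440 of 11930 genes. For TGF-β it was reached by 4 of 38 members, against 1567 of 11954 genes. The IL-10 count was 1 without IL-10 EV library 1.

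**Figure D4:**
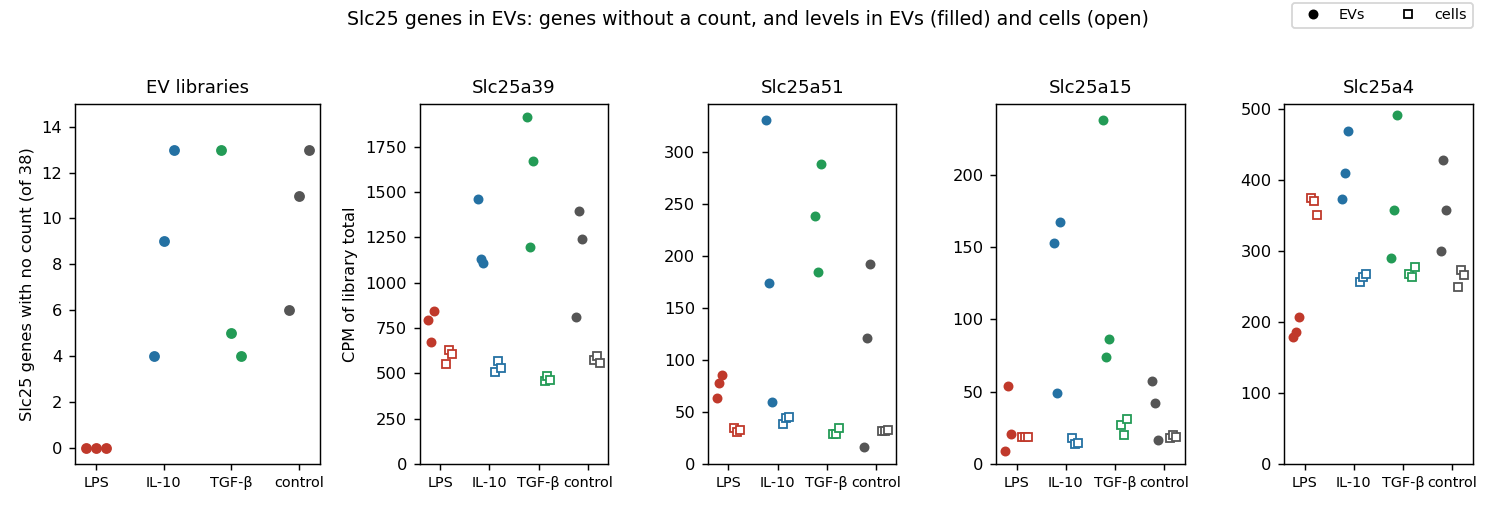
Number of the 38 Slc25 genes without a count in each EV library (left), and CPM of library total of Slc25a39, Slc25a51, Slc25a15 and Slc25a4 in each EV library (filled) and cell library (open) by treatment. No member is without a count in LPS EVs, Slc25a39 lies higher in TGF-β EVs (1198 to 1915) than in TGF-β cells (455 to 486), and Slc25a4 in LPS EVs (178 to 207) lies below LPS cells (351 to 375).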

How the data were processed

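Total RNA of BV2 cells and of their EVs was amplified with the SMART-Seq v4 kit, tagged with Nextera XT (18 cycles of PCR) and read in pairs of 150 bases, as the labels' protocols state. The 6 deposited tables hold the authors' raw counts per gene, as whole numbers, not normalized. The submitters' processing notes name DESeq2. For the aligner, the counter, its strand setting and the build, the sources used here give nothing. The series text also describes cells dosed with EVs, not analysed here. Repeated control columns were identical (12 columns), so the tables joined into 24 libraries, and 0 columns were left unmapped. No listed gene totals under 240 counts over all libraries.

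Comparisons used edgeR 4.0.16 (TMM, filterByExpr, robust quasi-likelihood fit, Benjamini-Hochberg over all genes tested, threshold 0.05) on the 6 libraries compared. Direct contrasts and interactions used 12 libraries. The SE is the log2 fold change divided by the root of the F statistic. Depth sets the floor of a group at 0, taken as 3 counts per library. Results were recomputed with DESeq2 1.42.0, with limma-voom and quality weights (limma 3.58.1), with RLE scaling, with no filter beyond 1 count, with 50 counts or more on average, with all 12 libraries of a compartment, with library size alone between EVs and cells, and with each library left out. The edgeR fit was checked on simulated counts. Exon lengths came from GENCODE M21 by symbol (38 of 38 members), and promoters from RefSeq on GRCm38.p6 (30 of 38 members, first entry of a gene). Members called with at least a 1.5-fold change in cells were described by library, at most 10 a comparison. In EVs the members called, at most 8, or the lowest 3 p, were named, at most 6 in contrasts and interactions, and at most 4 genes of each list. Some genes that this rule names are not reported here. Members, roles and lists were chosen with earlier results of these data known. Scripts used matplotlib 3.10.9, pandas 2.3.3 and numpy 2.4.6 in Python 3.11.15, and R 4.3.3.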

Additional observations from a re-analysis of the deposited data

Results flagged for a closer look

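The effect of LPS differed between EVs and cells, by the interaction test, in 4 members. The log2 difference (EVs minus cells) was -1.71 for Slc25a4, -1.70 for Slc25a24, 8.29 for Slc25a29 and 9.46 for Slc25a35. The values for Slc25a29 and Slc25a35 rest on control EVs without a count, so they describe the fit and are no bounds on the difference. For Slc25a24 the LPS libraries had 27 to 43.4 CPM of library total in EVs and 46.1 to 62.8 CPM in cells, against 37 to 102 CPM in control EVs and 37.9 to 45.3 CPM in control cells. For Slc25a29 the LPS libraries had 0.458 to 6.29 CPM in EVs and 3.11 to 4.49 CPM in cells, against 0 in control EVs and 1.41 to 2.9 CPM in control cells. The call of Slc25a29 was lost with limma-voom (adjusted p = 0.267), and that of Slc25a35 was lost in 1 of 17 alternatives. The call of Slc25a24 was lost in 13 of 17 alternatives, and that of Slc25a4 in none.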

How the results depend on the processing

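For the 32 results on named members in cells, 356 of 365 values under an alternative kept direction and side of the threshold, 9 lost the call and 0 reversed. For the 36 in EVs, 348 of 442 did, 90 lost the call, 4 gained it and 0 reversed. The number of members called moved by over 1.5 times as follows, and the cause was not tested. In LPS EVs against control EVs (1 member) it was 3 with DESeq2, 4 with limma-voom, 0 with 50 counts or more on average and 0 with all 12 EV libraries. In LPS EVs against LPS cells (14) it was 8 with 50 counts or more on average. In control EVs against control cells (2) it was 6 with DESeq2, 7 with limma-voom and 0 with 50 counts or more on average. In the LPS interaction (4) it was 8 with DESeq2 and 1 with limma-voom. Leaving out 1 library gave 4 to 10 in IL-10 cells against control cells, 7 to 13 in TGF-β cells against control cells, and 0 to 5 in LPS EVs against control EVs. Between EVs and cells it gave 3 to 18 for LPS, 0 to 12 for IL-10, 2 to 14 for TGF-β and 0 to 13 for controls. In the interactions it gave 3 to 13 for LPS and 0 to 1 for IL-10. No paired analysis was possible because the columns carry no replicate numbers tied to the samples. The 3 libraries a group and the depth of the EV libraries limit what the EV comparisons can show.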
